A study of Mus musculus with 36 samples.

Results

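CTCF peaks of mouse embryonic stem cells were compared between day 0 and day 6 of a ChIP-seq time course. The members are all intervals of the 2 CTCF peak lists on chromosomes 1 to 19, X and Y. There were 47414 intervals on day 0 and 38109 on day 6, of 182783 in the 8 peak lists of the series. A peak was shared when it overlapped a peak of the other day by 1 bp or more, and otherwise it belonged to day 0 alone or day 6 alone. The series holds 36 samples in 12 groups of 3, which are CTCF, MBD3 and input libraries of days 0, 2, 4 and 6. For all groups the labels describe culture with LIF and KnockOut Serum Replacement on gelatin, typically with irradiated mouse embryonic fibroblasts as feeders. The peak lists are marked WT, the labels name no genetic change or added agent, and they do not say what was done between day 0 and day 6. The authors called peaks once per day on replicates 1 to 3 together, so a day has 1 list, no spread between replicates exists and no test between days was made. Feeder cells, where present, contribute chromatin to the same libraries, and a binding site in fewer cells cannot be told apart from weaker binding in all cells.

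CTCF is a protein with several zinc fingers that binds a long DNA motif. It stops loop extrusion by cohesin, so that CTCF sites become the anchors of chromatin loops and the borders of domains, and it also binds insulators, imprinting control regions and many promoters. MBD3 is a subunit of NuRD, a complex that slides nucleosomes and removes acetyl groups from histones. The title of the study concerns NuRD at sites bound by CTCF.

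Of the day 0 peaks, 34202 (72.1%, 95% interval 71.7 to 72.5) were found on day 6 and 13212 (27.9%) were of day 0 alone. Of the day 6 peaks, 34294 were found on day 0 and 3815 (10.0%) were of day 6 alone. These intervals, and those of other shares below, are exact binomial intervals and cover counting error only. Merging both lists gave 51200 sites, of which 34173 (66.7%) were shared, 13212 (25.8%) were of day 0 alone and 3815 (7.45%) of day 6 alone. The day 0 list was drawn from deeper data: the peak caller's genome-wide background was 2.87 fragments on day 0 and 1.87 on day 6. When the 38109 peaks of lowest q were taken from each day, 5546 were of day 0 alone and 5449 of day 6 alone, which are near each other by construction, since the lists then have the same length.

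Promoter sequences are shown for examples of each class, chosen because a peak overlapped the promoter window. Each run below is the reference sequence of the 250 bases before a gene's start, written on the gene's strand from RefSeq (GRCm38.p6, the assembly of mm10). Capitals mark a match to the CTCF core consensus of 12 positions on either strand, with no mismatch for Lsm11 and up to 1 mismatch for the others. The first set has the shared promoter peaks of highest fold enrichment (fragments over the expected background at the summit, as the authors deposited it). Lsm11 (chr11:45944936-45945185, minus strand) makes a protein of the histone mRNA processing machinery, Vps36 (chr8:22192583-22192832, plus strand) an ESCRT-II subunit and Rapgef1 (chr2:29619470-29619719, plus strand) a guanine nucleotide exchange factor for Rap1.

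Lsm11: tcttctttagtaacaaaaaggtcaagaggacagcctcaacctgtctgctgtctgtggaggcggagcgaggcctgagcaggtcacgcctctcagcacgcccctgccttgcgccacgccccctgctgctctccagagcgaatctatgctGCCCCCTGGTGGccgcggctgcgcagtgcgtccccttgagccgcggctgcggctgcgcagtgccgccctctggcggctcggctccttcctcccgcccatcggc

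Vps36: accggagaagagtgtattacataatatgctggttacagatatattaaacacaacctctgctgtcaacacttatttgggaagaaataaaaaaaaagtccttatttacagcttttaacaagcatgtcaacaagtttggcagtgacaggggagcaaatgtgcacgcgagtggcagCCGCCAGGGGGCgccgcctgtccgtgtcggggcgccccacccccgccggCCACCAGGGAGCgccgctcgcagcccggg

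Rapgef1: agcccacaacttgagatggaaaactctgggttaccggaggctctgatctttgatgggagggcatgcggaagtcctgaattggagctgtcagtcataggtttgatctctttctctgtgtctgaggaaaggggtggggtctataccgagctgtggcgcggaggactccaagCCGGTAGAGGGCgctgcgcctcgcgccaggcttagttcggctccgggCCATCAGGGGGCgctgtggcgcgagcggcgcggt

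The second set has the promoter peaks of highest fold among those of day 0 alone. Zfp777 (chr6:48047795-48048044, minus strand) encodes a zinc finger protein, Slc30a4 (chr2:122702664-122702913, minus strand) a zinc transporter and Gimap8 (chr6:48646984-48647233, plus strand) a GTPase of the immune-associated family.

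Zfp777: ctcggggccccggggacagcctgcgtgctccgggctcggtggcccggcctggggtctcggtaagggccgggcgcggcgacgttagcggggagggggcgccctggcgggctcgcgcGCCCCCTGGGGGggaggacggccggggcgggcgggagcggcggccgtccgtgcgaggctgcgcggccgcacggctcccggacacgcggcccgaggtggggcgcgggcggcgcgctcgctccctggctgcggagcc

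Slc30a4: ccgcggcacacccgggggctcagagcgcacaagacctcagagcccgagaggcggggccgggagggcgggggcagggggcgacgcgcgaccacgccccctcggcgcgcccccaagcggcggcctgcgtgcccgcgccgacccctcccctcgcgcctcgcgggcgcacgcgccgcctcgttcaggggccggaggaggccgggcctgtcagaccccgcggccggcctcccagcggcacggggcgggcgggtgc

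Gimap8: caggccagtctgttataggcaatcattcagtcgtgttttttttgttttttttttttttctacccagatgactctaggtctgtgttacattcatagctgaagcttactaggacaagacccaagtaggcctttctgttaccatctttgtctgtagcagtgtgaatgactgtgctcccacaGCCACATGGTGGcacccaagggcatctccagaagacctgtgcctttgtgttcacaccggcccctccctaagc

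The third set has the promoter peaks of highest fold among those of day 6 alone. Uba1 (chrX:20662646-20662895, plus strand) encodes the main ubiquitin-activating enzyme and Art3 (chr5:92386637-92386886, plus strand) a protein of the ADP-ribosyltransferase family, and Potegl (chr2:23207226-23207475, plus strand) is a protein-coding gene of RefSeq.

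Uba1: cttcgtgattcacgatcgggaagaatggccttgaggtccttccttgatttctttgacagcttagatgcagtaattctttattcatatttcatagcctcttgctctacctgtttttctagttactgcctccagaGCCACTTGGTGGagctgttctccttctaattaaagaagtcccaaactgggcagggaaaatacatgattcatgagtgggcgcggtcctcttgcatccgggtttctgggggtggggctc

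Art3: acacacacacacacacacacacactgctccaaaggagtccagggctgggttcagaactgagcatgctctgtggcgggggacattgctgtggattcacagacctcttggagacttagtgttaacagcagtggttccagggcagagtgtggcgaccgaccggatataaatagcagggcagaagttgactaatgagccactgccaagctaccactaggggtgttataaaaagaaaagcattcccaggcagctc

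Potegl: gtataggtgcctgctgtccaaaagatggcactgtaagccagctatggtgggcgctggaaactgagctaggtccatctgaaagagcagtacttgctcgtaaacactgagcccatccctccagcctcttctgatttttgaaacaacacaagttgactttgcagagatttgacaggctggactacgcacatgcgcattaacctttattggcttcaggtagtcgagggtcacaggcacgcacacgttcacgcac

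The fold at the Lsm11 promoter was 48.3 on day 0 and 29.0 on day 6, with summits 72 and 77 bp before the start. Vps36 had folds of 46.0 and 24.7, and Rapgef1 had 42.9 and 33.2. The Lsm11 window held an exact core match, and those of Vps36 and Rapgef1 held 2 and 3 matches with 1 mismatch, the last of Rapgef1 after the start. Of the promoters of day 0 alone, Zfp777 had a fold of 11.0 (−log10 q 49.6), Slc30a4 of 9.19 (−log10 q 61.3) and Gimap8 of 9.13 (−log10 q 31.6). The Zfp777 and Slc30a4 windows were GC-rich, with 51 and 46 CpG dinucleotides in 300 bases, and the Gimap8 window held 3. Zfp777 and Gimap8 had a match with 1 mismatch and Slc30a4 had none. Uba1 had by far the strongest promoter peak of day 6 alone, with a fold of 10.8 and 100 fragments at the summit (−log10 q 67.4), 91 bp before the start and close to its core match with 1 mismatch. Art3 followed with a fold of 5.70 and Potegl with 4.79, and neither window held a match. A match describes the letters and is not a tested binding site.

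Promoters were almost entirely on the day 0 side of the difference. Of 17492 protein-coding genes with a promoter window in the table (250 bases before to 50 after the start, none on chromosome 18), 1851 had a shared peak there and 1835 (10.5%) a peak of day 0 alone, against 17 (0.0972%) with a peak of day 6 alone. After the 3 shown, the promoters of highest fold in the day 0 class were those of Wwc1 (8.10), a regulator of the Hippo pathway, the Polycomb gene Scmh1 (7.71), the glycolipid transfer gene Gltp (7.46), the inositol phosphatase gene Inppl1 (7.20) and the flippase gene Atp8b3 (7.01). After the 3 shown, the day 6 class was led by the anoctamin gene Ano3 (3.88), the ubiquitin ligase adaptor gene Klhl3 (3.26), the adaptor gene Stap2 (3.10), Jmjd8 (3.10) and the histone gene H2ac20 (2.77). The median fold was 2.74 over the windows of day 6 alone and 2.52 over those of day 0 alone, so both classes were mostly weak.

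The windows also differed in sequence. An exact core match was found in 119 of 21263 windows (0.560%), in 4.82% of the windows with a shared peak (3.93 to 5.85) and in 0.582% of those of day 0 alone (0.301 to 1.01). With 1 mismatch the shares were 4.53% of all windows, 23.4% of shared and 4.95% of day 0 alone, against 2.25% of windows without a peak. Windows without a peak held an exact match in 0.0525% (0.0240 to 0.0996). Windows of day 0 alone thus held the core less often than shared windows and more often than windows without a peak. CpG dinucleotides were most numerous in windows of day 0 alone, with a median of 27 per window. Shared windows had 23, windows without a peak 9 and the 17 windows of day 6 alone 10. Median GC was 66.7% for day 0 alone, 62.7% for shared windows and 54.3% for windows without a peak. The part of base composition in the match shares was not tested. The fold differed between the classes as well. Among windows with a day 0 fold under 3, 10.1% of the 99 shared (4.95 to 17.8) and 4.03% of the 1490 of day 0 alone (3.09 to 5.15) held a match with 1 mismatch. Among those with a fold of 3 to 5, 11.1% of the 314 shared and 6.56% of the 503 of day 0 alone did (intervals 7.89 to 15.2 and 4.56 to 9.09). Among those with a fold of 5 to 10, 18.2% of 669 and 11.8% of 68 did (15.4 to 21.4 and 5.22 to 21.9). In all 3 ranges the shared windows had the higher share and the intervals overlapped.

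The position of summits around starts also differed between the classes. Summits of day 0 alone lay within 1 kb of the nearest start of a protein-coding gene for 22.3% of peaks, against 7.53% of shared day 0 peaks and 1.88% of peaks of day 6 alone (chromosome 18 not included). These shares were not compared at equal fold, and the median day 0 fold was 3.31 for day 0 alone and 8.45 for shared peaks. Near gene ends, the excess of day 0 alone lay mainly among weak peaks, as given below. Shared summits were more often before the start than after it, with 4.88% in the 1 kb before and 2.65% in the 1 kb after. Peaks of day 0 alone had the opposite lean, with 8.59% before and 13.7% after. Peaks of day 6 alone had no such peak at starts, with 0.924% before and 0.952% after. In the plot of summits around starts, the day 0 class is broad and extends into the gene, and the shared class is narrow and upstream.

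**Figure D1:**
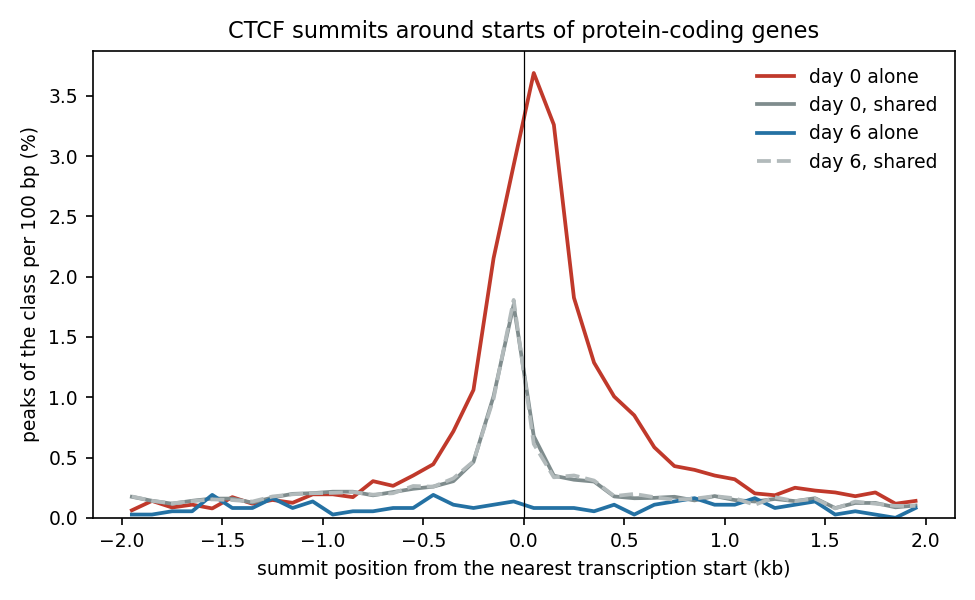
Share of the CTCF peaks of each class (vertical axis, % per 100 bp) by the position of the summit from the nearest protein-coding start (horizontal axis, kb, negative before the start). The class of day 0 alone is highest just after the start, both shared curves are highest just before it, and the class of day 6 alone is flat.

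Fold enrichment separated shared peaks from those of 1 day. Shared day 0 peaks had a median fold of 8.45 and 77 fragments at the summit, and peaks of day 0 alone had 3.31 and 32. Shared day 6 peaks had 9.55 and 62, and peaks of day 6 alone had 5.10 and 20. In 10 equal groups of day 0 peaks by fold, 7.19% of the weakest group were found on day 6, 83.1% of the fifth and 99.9% of the strongest. From the day 6 side, 69.9% of the weakest group and 99.9% of the strongest were found on day 0. Only 48 of 12806 day 0 peaks with a fold of 10 or more were of day 0 alone, and 125 of 16179 such day 6 peaks were of day 6 alone. After the day 0 counts and backgrounds were scaled to the day 6 level, 80.7% of the peaks of day 0 alone would still have passed the weakest −log10 p of the day 6 list (3.60), as would 99.6% of the shared.

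**Figure D2:**
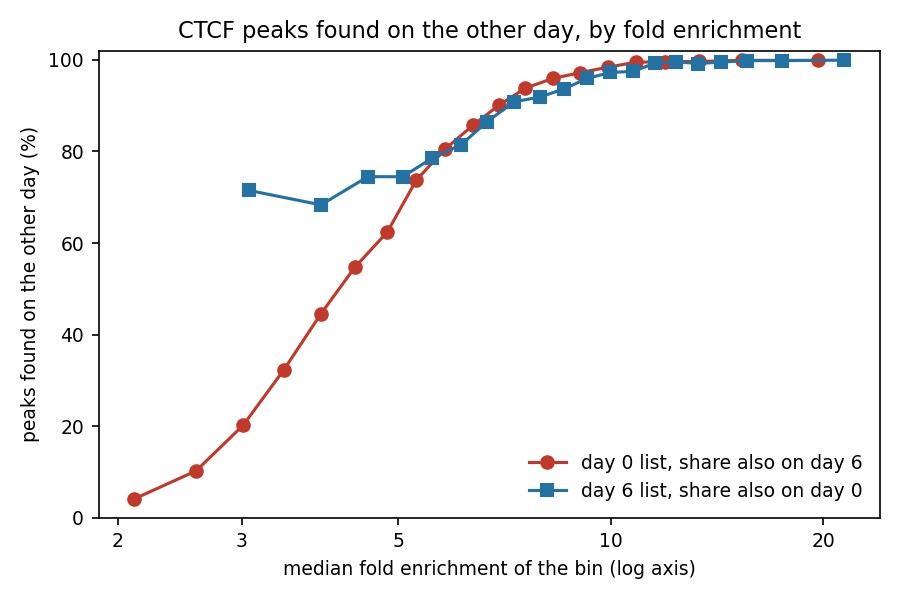
Share of CTCF peaks found on the other day (vertical axis, %) in 20 equal bins of fold enrichment within each list (horizontal axis, median fold of the bin, log axis). The day 0 curve climbs from under 10 to nearly 100%, and the day 6 curve starts near 70%.

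The strongest peaks of day 0 alone were single sites scattered over the genome. The highest fold, 18.1 with 69 fragments, was 5045 bp from Map7d2, a gene for a microtubule-associated protein (chrX:159409285-159409558). A second site of fold 18.1, with 125 fragments, lay 1029 bp from the S100 calcium-binding gene S100a13 (chr3:90525458-90525964). The site beside Tbca, a tubulin folding cofactor gene, had a fold of 17.0 and 171 fragments, and unlike the first it was on neither the day 2 nor the day 4 list (chr13:94843049-94843584). All of these overlapped an MBD3 peak of day 0 and none an MBD3 peak of day 6. The next had folds of 14.7, at 24110 bp from the guanine nucleotide exchange gene Dock6 on chromosome 9, 14.4, at 86408 bp from the death domain gene Cradd on chromosome 10, and 14.0 inside Zfp516 on chromosome 18. They were on the day 4 list.

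The 6 strongest peaks of day 6 alone were all on the day 4 list. The highest folds were 19.4 at 26165 bp from Prdm2, 18.1 inside Rabgap1l and 16.6 inside Sel1l3, all also on the day 2 list. The nearest day 0 summits were 9279, 9804 and 10486 bp away, so these were not day 0 sites with a shifted border. Aph1b, a gamma-secretase subunit gene, held the next at a fold of 16.4 (chr9:66787840-66788195), with a day 0 summit 3340 bp away. A site of fold 16.2 stood alone in a gene-poor stretch 709177 bp from the methyltransferase gene N6amt1 (chr16:86644864-86645184), 225319 bp from the next day 6 summit. Another, of fold 15.3, lay in the noncoding RNA gene Gm34905 (chr6:43022004-43022281). Over the whole class, the median distance to the next summit of day 6 was 18920 bp, against 11029 bp for shared day 6 peaks.

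The strongest shared peaks kept their place at high resolution. The sites near Ebf2, beside Slc48a1 and at Lsm11 had day 0 folds of 60.6, 50.7 and 48.3 and day 6 folds of 27.3, 24.9 and 29.0, with summits 2, 3 and 5 bp apart. Over 34323 overlapping pairs the summits were a median of 7 bp apart and within 50 bp in 97.8%. The median log2 ratio of day 6 to day 0 fold was 0.13, and from the 5th to the 95th percentile it ran from −0.87 to 1.08. Close summits follow in part from the overlap rule that defines a shared peak, while the fold was free to differ. Distance and fold have no common scale and were not set against each other. Folds depend on each list's background and the ratios were not tested.

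Some shared sites differed many-fold in enrichment. The following were chosen after their values were seen, as the largest differences in fold rank among 33785 pairs of single peaks with summits within 100 bp. A site inside Mansc4 had a fold of 25.2 with 254 fragments on day 0 and 2.55 with 34 on day 6 (chr6:147075984-147076796 on day 0). Folds were also lower on day 6 inside D430041D05Rik (17.8 and 3.68), at 8221 bp from the nuclear factor gene Akirin1 (15.2 and 3.38), in the kinase gene Mast1 (14.8 and 3.24) and in Elmod1 (13.9 and 3.09). In the other direction, a site 18877 bp from the oxoglutarate receptor gene Oxgr1 had a fold of 3.44 with 37 fragments on day 0 and 23.6 with 89 on day 6 (chr14:120061227-120061400 on day 0). Inside Wwc1, whose promoter peak was of day 0 alone, another site had 3.62 on day 0 and 18.3 on day 6, with 72 and 79 fragments over backgrounds of 19.2 and 3.38. Bbx, an HMG box gene, held a site with 4.20 and 20.0, with 53 and 76 fragments over backgrounds of 11.9 and 2.86. At the Oxgr1 site the background was 10.0 and 2.81, so all of these higher folds went with a lower background on day 6. At both Oxgr1 and Wwc1 an MBD3 peak was present on day 6 and not on day 0, and at Mansc4, D430041D05Rik, Mast1 and Elmod1 one was present on day 0 and not on day 6. The Akirin1 and Bbx sites had none on either day.

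MBD3 peaks differed between the days together with CTCF fold. Of 1000 pairs whose day 6 fold was under 1/2 of the day 0 fold, 44.7% overlapped an MBD3 peak of day 0 and 9.80% one of day 6. Of 2228 pairs with the opposite difference, 8.30% had MBD3 on day 0 and 36.3% on day 6. The 30557 other pairs had 25.6% and 28.9%. These pairs were sorted by fold itself. Median folds on day 0 and day 6 were 11.3 and 4.72 where the fold was lower on day 6, and 5.68 and 13.5 where it was higher. How far the MBD3 shares follow from CTCF strength on each day was not tested. The set with the lower day 6 fold was also more often at genes, with 27.5% of summits within 1 kb of a gene end against 4.98% of the opposite set. Among day 0 CTCF peaks with an MBD3 peak on day 0, MBD3 was still listed on day 6 at 51 of 624 (8.17%, 6.15 to 10.6) of day 0 alone and at 5364 of 8606 (62.3%, 61.3 to 63.4) of the shared. Median CTCF folds of these sets were 3.00 and 13.0, so strength differed along with class. Carry-over of fragments between the antibodies' libraries was not tested.

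Presence on the days between followed the classes. Of the peaks of day 0 alone, 4.87% were on the day 2 list and 14.0% on the day 4 list, against 75.7% and 92.2% of shared peaks. Of the peaks of day 6 alone, 13.4% were on day 2 and 41.4% on day 4. The day 4 share of this class ran from 23.5% in the weakest 10th of day 6 folds to all of the 4 peaks in the strongest 10th. Weighting shared peaks to the fold bins of each class gave lower values than all shared peaks, 68.6% on day 4 for the day 0 comparison and 78.1% for the day 6 comparison, which still exceeded those of the peaks of 1 day. MBD3 of day 0 was at 4.72% of peaks of day 0 alone and 25.2% of shared peaks, and after the same weighting at 5.25%, so that difference was nearly gone at equal fold. MBD3 of day 6 was at 0.484% of peaks of day 0 alone and at 6.35% of shared peaks so weighted.

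**Figure D3:**
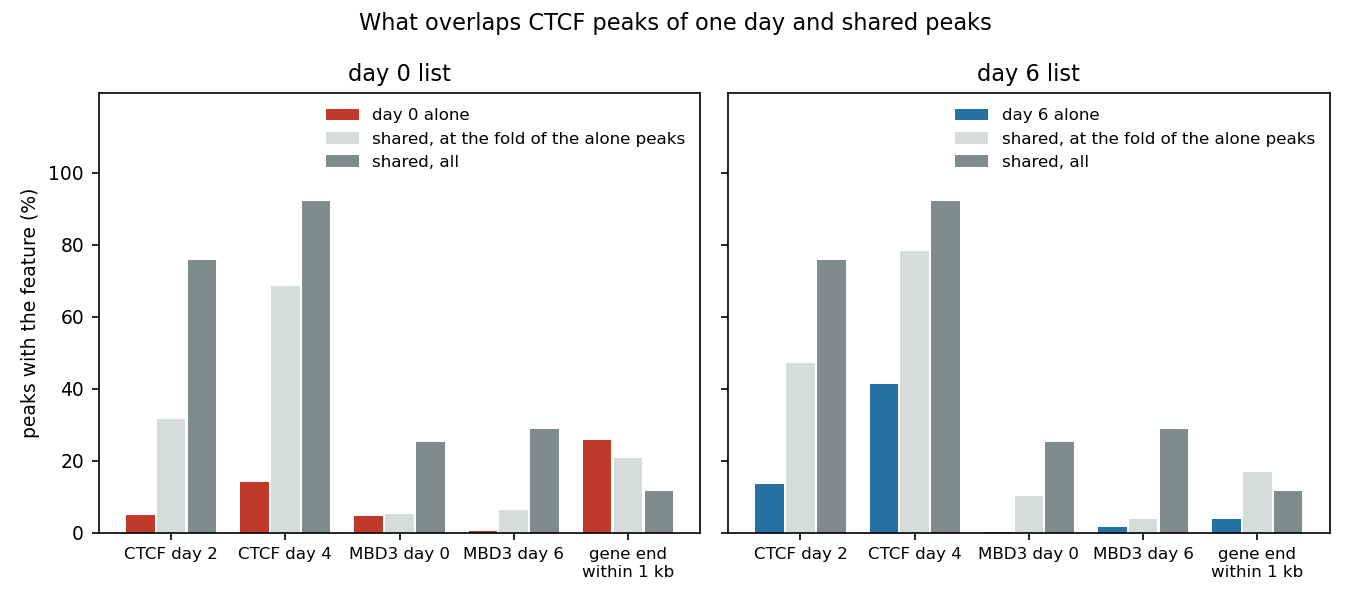
Share of CTCF peaks (vertical axis, %) that overlap CTCF peaks of day 2 or 4, MBD3 peaks of day 0 or 6, or lie within 1 kb of a gene end, for peaks of 1 day (coloured), shared peaks weighted to the fold bins of the coloured class (light) and all shared peaks (dark). Peaks of day 0 alone exceed both shared bars at gene ends (25.7%) and peaks of day 6 alone fall short of both (3.83%).

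Gene ends also set the classes apart. A summit lay within 1 kb of either end of a protein-coding gene for 25.7% of peaks of day 0 alone, 11.5% of shared day 0 peaks and 3.83% of peaks of day 6 alone. At the fold of each class, shared peaks would have had 20.7% and 16.8%. The excess of day 0 alone lay mainly among weak peaks. In the weakest 10th of day 0 folds, 45.9% of peaks of day 0 alone and 31.1% of shared peaks were near an end. At folds of 4.57 to 5.56 the shares were 8.45% and 11.7%, and at 6.67 to 7.91 they were 7.12% and 9.67%. In lists of equal length the shares were 21.6% for day 0 alone and 4.81% for day 6 alone, and at a −log10 q of 10 or more 18.9% and 4.00%. The background under the peaks differed alongside, at a median of 2.96 times the genome-wide level for day 0 alone, 1.53 for day 6 alone and 3.13 for shared day 6 peaks, and its part in the contrast was not tested. Counted by gene, 2985 of 21887 protein-coding genes (13.6%) had CTCF near an end on day 0 alone, 119 (0.544%) on day 6 alone and 4523 on both days.

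Genes for CTCF itself and its partners had shared peaks of differing strength, weak peaks of day 0 alone, or none. Of 21 loop extrusion genes and CTCF partners, 7 had a peak near an end on both days, 4 on day 0 alone and 10 on neither, beside the 13.6% of all protein-coding genes of day 0 alone. Stag2, a cohesin subunit gene, had folds of 43.1 and 22.6 on day 0 and day 6, Pds5b, a cohesin regulator, had 30.4 and 18.4, and Ctcf had 18.1 and 9.59. The genes of day 0 alone were the transcription factor genes Yy1 (fold 2.95), Maz (2.33), Zfp143 (2.02) and Vezf1 (2.09), all with weak peaks. Of 15 NuRD subunit genes, 5 were of day 0 alone and 3 shared. Gatad2a had a fold of 2.83, Mbd2 of 2.86, Rbbp4 of 2.58 and Mta1 of 1.86, and Mbd3 itself kept a weak peak with 2.31 and 2.07.

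Lists of developmental genes held shared peaks and peaks of day 0 alone in differing numbers. None of their members was of day 6 alone, a class of 0.544% of all protein-coding genes. Beside the counts below, 2985 of all 21887 protein-coding genes (13.6%) were of day 0 alone and 4523 were shared. The lists are short and their counts were not tested against these. Of 22 pluripotency genes matched, 2 were shared and 6 of day 0 alone, led by the naive-state factor gene Tfcp2l1 (3.39), Utf1 (2.77), the orphan receptor gene Nr0b1 (3.68) and Tet1 (2.76), a methylcytosine dioxygenase gene. Of 9 formative and primed genes, 5 were of day 0 alone, with Sall2 (7.78), Pou3f1 (2.79), Lef1 (2.99) and Dnmt3b (2.27) among them. Of 16 neuroectoderm genes, 7 were of day 0 alone, led by Olig2 (3.59), Otx1 (3.39), Zic1 (3.58) and Neurog1 (2.63), and 3 were shared. Within 5 kb of the spans of list genes, 45.8% of 24 day 0 peaks of the neuroectoderm list were kept (54.3% expected from their fold), 42.1% of 19 of the formative and primed list (50.2% expected), 52.4% of 42 of the pluripotency list (53.0% expected) and 53.8% of 39 of the NuRD list (56.0% expected). Low shares kept thus went with low folds. Of 18 mesoderm and endoderm genes, 6 were shared, such as Mesp1 (17.8 and 9.00) and Eomes (11.6 and 6.37), and 2 were of day 0 alone, Kdr (3.27) and Cdx2 (3.42). Of 25 imprinted genes matched, 7 were shared and 4 of day 0 alone, namely Mest (6.79), Kcnq1 (4.90), Grb10 (4.33) and Inpp5f (2.48). Mest, which is expressed from the paternal copy, had the highest −log10 q of these, at 64.1. Of 15 feeder fibroblast marker genes, 4 were shared, such as Col1a1 (18.8 and 21.7), and 1, Twist1 (2.03), was of day 0 alone. CTCF peaks do not measure how many fibroblasts were present.

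Gene families differed in the share kept and in the share expected from the fold of their peaks. The expected number kept was taken from the share kept in 20 bins of fold over the whole day 0 list. Over all protein-coding genes (span plus 5 kb on either side) 69.3% of 31212 day 0 peaks were found on day 6, and 69.6% were expected. The lowest shares among families with 10 or more day 0 peaks were those of Lhx and Isl factors (4 of 11, expected 5.69), Nkx factors (6 of 16, expected 7.81), proneural bHLH factors (9 of 18, expected 9.94), vomeronasal receptors (5 of 10, expected 6.45) and frizzled receptors (6 of 12, expected 5.61). The first 3 of these are transcription factors of neural and organ patterning. No day 0 peak was kept at Lhx1 (2), Lhx3 (2), Nkx2-3 (2), Ascl2 (2) or Olig2 (1). The highest shares were those of interferons (17 of 19, expected 15.4), defensins (14 of 16, expected 13.2), collagens (121 of 142, expected 115), serpins (28 of 34, expected 25.7) and Sox factors (36 of 46, expected 33.5). All of these intervals were wide, and for each of the 10 families the 95% interval of the share included the expected share. Large families held many of the peaks of day 6 alone by number. Solute carriers had 40 of 595 day 6 peaks (6.72%), Zfp zinc finger genes 31 of 381 (8.14%) and voltage-gated channels 18 of 255 (7.06%). Glutamate and GABA receptors had 13 of 99 (13.1%). Over all protein-coding genes the share was 8.98%, so the first 3 of these were below it. Chosen after their values were seen, Zic factors kept 0 of 5 peaks (expected 2.03). Also so chosen, 7 of 26 day 6 peaks (26.9%) at non-clustered protocadherins were of day 6 alone, beside the 8.98% of all protein-coding genes.

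**Figure D4:**
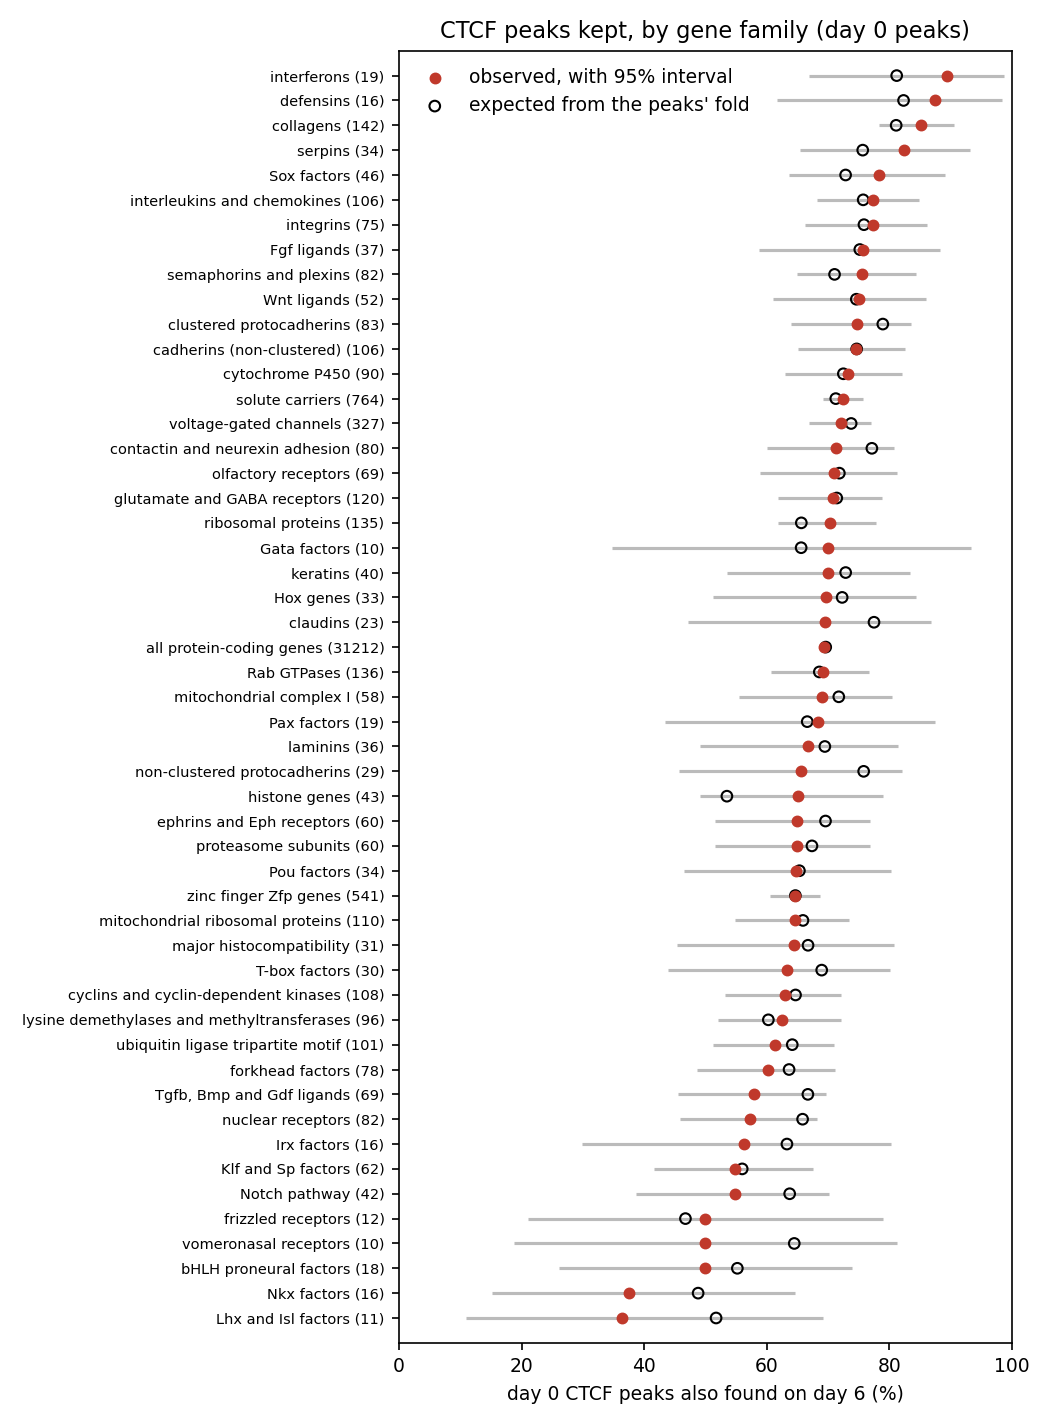
Share of day 0 CTCF peaks found on day 6 (horizontal axis, %) for gene families with 10 or more day 0 peaks, whose number stands in brackets (1 family is not shown). Filled points are observed with exact 95% intervals as bars, open points are expected from the fold of the peaks, and the families of lowest share, Lhx and Isl and Nkx factors, also had a low expected share.

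Single genes departed from expectation by less than 4 peaks. Among 457 genes with 8 or more day 0 peaks the median share kept was 75.0%. Macf1, the gene of a giant linker between microtubules and actin, kept 10 of 20 (expected 14.0), and the 10 of day 0 alone had folds of 2.25 to 7.76. Osbpl10, an oxysterol-binding protein gene, kept 8 of 16 (expected 11.3), the synaptic scaffold gene Grip1 6 of 13 (8.59), the sulfotransferase gene Chst8 7 of 13 (9.57) and Csmd2 6 of 11 (8.32). The clustered protocadherins of chromosome 18 entered 3 times through overlapping spans, as Gm37013 (63 of 82, expected 66.0), Pcdha1 (11 of 20, expected 13.8) and Pcdha2 (10 of 19, expected 12.9). Above expectation were the organic anion transporter gene Slco3a1, which kept 9 of 9 (5.04), the cadherin gene Cdh4 with 14 of 15 (10.8), the recombination gene Rad51b with 13 of 15 (10.1), the kinesin gene Kif6 with 11 of 12 (8.49) and Sash1 with 8 of 10 (5.57).

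By number, the most peaks of day 0 alone were at Gm37013 (19), the overlapping Gm38666 and Gm38667 (17 each), Macf1, the transcription activator gene Camta1 and Gse1 (10 each). The most peaks of day 6 alone were at Mecom, a gene for a zinc finger transcription factor of blood stem cells, with 6, whose folds were 3.21 to 8.28. Another 7 genes had 5 each, namely the glypican gene Gpc5, Rabgap1l, the synaptic genes Erc2 and Nrxn3, the glucosyltransferase gene B3glct, Csmd1 and Fry. Most of these genes span long stretches of DNA, and B3glct, with a span of 84.5 kb, was the shortest of them. Of 14352 genes with a day 0 peak, 2311 had none kept, in a list where 27.9% of peaks were of day 0 alone. Most of the 2311 had a single day 0 peak, 502 had 2 or more and 85 had 3 or more. Of 12538 genes with a day 6 peak, 335 had none on day 0. Among the 85, picked after their values were seen, the BMP gene Bmp8a and the cilia gene Ift140 had 5 day 0 peaks each, and the synaptic organizer gene C1ql2 and the zinc finger gene Zic4 had 4.

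Along the chromosomes the lists were much alike, and single stretches stood out. Of 2499 windows of 1 Mb with a peak, 983 had 20 or more day 0 peaks, and the share kept in these had a median of 72.0% and ran from 57.9% to 86.4% between the 5th and 95th percentiles. The lowest share, 28.6%, was at chr13:66000001-67000000, where 10 of 35 peaks were kept and about 19 were expected. This window holds Gm10324, Gm45965, 2410141K09Rik, Zfp640 and other genes among long gaps, and ends in Uqcrb, Mterf3 and Ptdss1. The 25 peaks of day 0 alone had folds of 1.93 to 7.26, and the 10 shared had 5.75 to 14.0 on day 0 and 3.59 to 19.6 on day 6. There was no peak of day 6 alone. All 9 day 0 peaks from 66778501 to 66933404 (154.9 kb) were of day 0 alone, the run of most peaks on the day 0 side. Their folds were only 2.08 to 3.95, and 1.904 of the 9 were expected to be kept, so most of this loss went with low fold. The background under day 0 peaks of the window reached 17.2 times the genome-wide level, and its part in the low share kept was not tested.

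**Figure D5:**
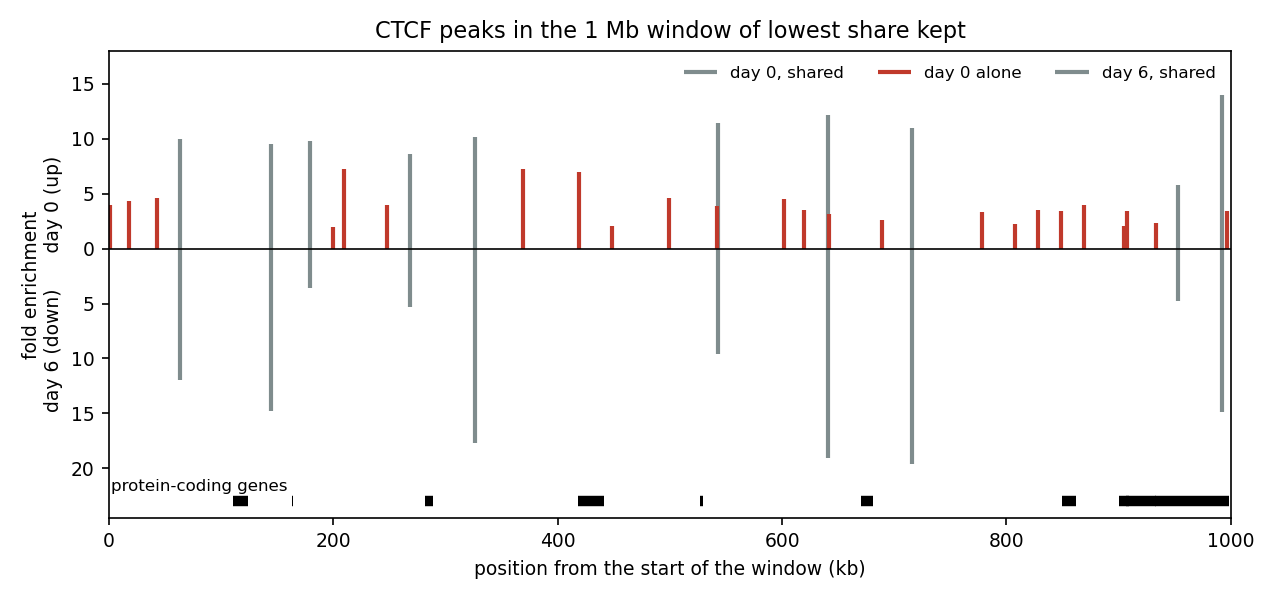
CTCF peaks in the 1 Mb window of chromosome 13 with the lowest share kept, as fold enrichment on day 0 (up) and day 6 (down) by position from the window's start (kb). Grey sticks are shared, red sticks are of day 0 alone and black bars are protein-coding genes; the grey sticks reach a day 0 fold of 14.0 and the red ones 7.26, and no peak was of day 6 alone.

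Further windows below expectation held 18 to 62 protein-coding genes, and the windows above expectation named below held 4 to 52. At chr7:30000001-31000000, with Zfp568, Zfp14, Zfp82 and other zinc finger genes, 40 of 63 peaks were kept (expected 46.8). At chr4:123000001-124000000, with Mycl, Bmp8b and Macf1, 30 of 52 were kept (36.6), and none of its day 6 peaks was of day 6 alone. At chr17:27000001-28000000, with the apoptosis gene Bak1 and the calcium channel gene Itpr3, 39 of 64 were kept (45.5). At chr17:35000001-36000000, with Vars, Msh5 and Clic1 of the major histocompatibility region, 51 of 88 were kept (57.0), and its 37 peaks of day 0 alone were the most of any window. Windows at chr8:84000001-85000000 and chr8:70000001-71000000 followed with 35 and 34. Above expectation were chr4:150000001-151000000 with the glycolysis gene Eno1 (57 of 70, expected 50.4), chr5:148000001-149000000 with Slc7a1 (61 of 73, expected 54.5) and chr7:127000001-128000000 with Maz and Kif22 (47 of 65, expected 40.8). With bins of −log10 q in place of fold, the distance from expectation went from 6.21 to 0.286 in the last of these, from 6.60 to 4.22 at Eno1, from −6.50 to −9.86 at Bak1, from −5.95 to −12.4 at Msh5 and from −9.04 to −11.5 in the chromosome 13 window. The order of the windows thus depends on how strength was measured. In windows of 2 Mb the Msh5 value was −2.57 and that of chromosome 13 was −12.0.

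Peaks of day 6 alone were most numerous in windows not named above. Over the whole day 6 list 10.0% of peaks were of this class. The most in a window was 9, of 27 day 6 peaks at chr5:15000001-16000000. This window holds Speer4c, Speer4d and other genes of a multicopy family whose reads may be hard to place. At chr5:147000001-148000000, with the homeobox genes Cdx2, Pdx1 and Gsx1, 9 of 52 day 6 peaks were of day 6 alone. At chr5:150000001-151000000, with Fry and Brca2, 9 of 54 were. Windows with Mecom (chr3:30000001-31000000) and with the myosin gene Myo1e (chr9:70000001-71000000) had 8 each, of 19 and 23 day 6 peaks. Runs of consecutive day 6 peaks without a day 0 counterpart, chosen after their values were seen, numbered 12 of 4 or more peaks, against 256 on the day 0 side, where 27.9% of peaks were of 1 day against 10.0% of day 6. The one of most peaks held 10 over 5127 kb between Pcdh9 and Dach1 on chromosome 14, with folds of 4.53 to 10.4, of which 2 were on the day 4 list. Runs of 6 lay beside Meis1 on chromosome 11, with 5 on the day 4 list, and at Mecom. On the day 0 side, after the run of 9, a run of 8 covered 926 kb around Zic1 and Zic4 on chromosome 9, with folds of 2.84 to 8.02 and 4.91 expected to be kept.

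Chromosomes differed little in the share kept and more in peaks of day 6 alone. The share kept was 69.0% on chromosome 12 to 73.9% on chromosome 9, and 56.8% of 37 peaks on Y. Of 1005 day 6 peaks on X, 167 were of day 6 alone (16.6%, 14.4 to 19.1), against 9.83% on the autosomes and 6.94% on chromosome 11. From the fold of its peaks 9.34% was expected on X, and from their −log10 q 13.0%. In lists of equal length the shares were 25.0% on X and 14.0% on the autosomes. Day 6 peaks on X had a median of 34 fragments, against 56 on the autosomes, at nearly the same fold, and the part of this lower depth in the result was not tested. Strong sites among the 167 were 49928 bp from the receptor gene Gpr173 (11.1), at Uba1 (10.8) and in the tetraspanin gene Tspan7 (10.4), and all of these were on the day 4 list.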

How the data were processed

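Chromatin immunoprecipitation libraries were sequenced as read pairs after PCR, per the labels' protocols. The submitters' processing notes list MACS2 2.1.2 and Bowtie2 2.3.4 and the build mm10, and their parameters are not given in the sources used here. The authors deposited 1 narrowPeak list per antibody and day, pooled over 3 replicates. The deposited lists give the fold enrichment (a ratio), its −log10 p and its −log10 q at every summit as the authors' peak caller computed them, used here only within a list or side by side. The integer score column in the authors' lists was not used.

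Rows of the same interval were counted once, with the summit of highest −log10 q. Fragment counts and backgrounds at summits were recovered from fold and −log10 p by the MACS2 formulas, with a match within 0.1% for 98.1% of day 0 and 98.4% of day 6 peaks. No total read depth was used. The background level is the lowest background shared by 0.5% or more of a list's peaks and is the measure of depth here. Few fragments mean wide counting error: the median summit had 57 fragments on day 0 and 55 on day 6. Genes and promoters came from RefSeq tables of GRCm38.p6, with 21887 protein-coding genes, 17492 of which had promoter windows. 1 gene family and 1 named site are not reported here. The gene table holds no exons, so exons and introns are not told apart.

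The members, lists, families and rules for named items were chosen with earlier results of these data known. Named by rule were the sites of highest fold per class, the windows and genes farthest from expectation or with the most peaks of 1 day, the families of lowest and highest share kept or with the most peaks of day 6 alone, the promoters of highest fold, and up to 4 list genes per direction by −log10 q. Other items are marked as chosen after their values were seen. Example genes of the loop, shared and family sets, and X sites, were also picked that way. The settings tried instead were lists limited to a −log10 q of 10 or more, lists of equal length, a depth-scaled day 0 list, other overlap rules, other windows and bins of −log10 q. Gene ends in the first 2 of these were added after seeing the data. Overlap code was tested on simulated data. Python 3.11.15 was used, with pandas 2.3.3 and numpy 2.4.6 for tables and scipy 1.17.1 for intervals.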

Additional observations from a re-analysis of the deposited data

How the results depend on the processing

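No paired analysis was possible because the authors pooled the replicates before calling peaks. At a −log10 q of 10 or more in both lists, 81.7% of day 0 peaks were found on day 6 and 91.4% of day 6 peaks on day 0, 6516 peaks were of day 0 alone, 642 promoters had a peak of day 0 alone, and 18.9% of peaks of day 0 alone were near a gene end. With equal numbers of peaks the shares found were 85.4% and 85.7%, 5546 peaks were of day 0 alone, and 21.6% of peaks of day 0 alone and 4.81% of day 6 alone were near a gene end. With the depth-scaled day 0 list the shares found were 76.2% and 89.6%, and 24.3% of peaks of day 0 alone were near a gene end. With summits within 100 bp in place of overlap they were 71.6% and 89.0%. Within 5 kb of a gene end lay 43.9% of peaks of day 0 alone. Frizzled receptors were 0.392 above the expected number with bins of fold and −0.316 with bins of −log10 q, the only one of the 10 families, 13 genes and 8 windows recomputed whose direction turned. An overlap of 50% of the shorter peak, all contigs and separate summits left the shares within their counting intervals. Replicates could not be left out, and differences between days carry no replicate error.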
